A study of Mus musculus with 3 samples.

Results

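The antiepileptic drug lamotrigine was compared with its solvent in mouse cerebral cultures, on 2 of the 3 arrays of the series. The lamotrigine array came from a culture treated with 100 µM lamotrigine in 0.1% DMSO, and the control array from a culture given 0.1% DMSO alone, both for 24 h from day 10 in vitro. The cells were primary cerebral cells taken at embryonic day 18 from C57BL6/J mice, kept in neurobasal medium with the supplement B27. The third array, from a culture given 1 mM valproate with 0.1% DMSO, is used here only for a reference value beside some genes. Per the labels, the lamotrigine array was made for work on antiepileptic drugs and was not part of the histone deacetylase inhibitor study that used the others. The number of embryos behind each culture was not given in the sources used here. With 1 array per treatment there is no replicate check and no p-value. A difference between the treatments therefore cannot be told apart from a difference between the cultures, RNA preparations or arrays, and an unusual DMSO culture would shift every value below.

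Lamotrigine blocks voltage-gated sodium channels in a use-dependent way, which limits repetitive firing and, with it, the release of glutamate. Neurons couple firing to transcription: calcium entry and the MAP kinase pathway switch on immediate early transcription factors such as Fos, Egr and Npas4, and later a set of secreted and synaptic genes such as Bdnf, Vgf and Nptx2. A separate programme, the integrated stress response, works through the transcription factor ATF4, whose translation increases when the initiation factor eIF2 is phosphorylated. ATF4 raises genes of amino acid synthesis, amino acid uptake and tRNA charging.

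Each level is a scaled signal, set so that the 75th percentile of an array's gene and RNA spots, controls left out, is 100. A difference is the log2 signal with lamotrigine minus that with DMSO, so values below 0 are lower with lamotrigine. A gene was measured through its brightest probe, and called bright when the mean of its scaled signals on both arrays was at least 100. Of 22336 genes, 14341 were detected on both arrays, 480 with lamotrigine only and 165 with DMSO only. The 75th percentile of raw signal was 388 on the lamotrigine array and 372 on the DMSO array, and spots above background made up 51.6% and 49.6%. Repeated spots of 259 detected probes gave a technical SD of a difference of 0.09 over the array, falling from 0.24 for genes under a scaled signal of 25 to 0.063 for those of at least 1600. This covers spot error within an array and nothing else.

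The probes behind the 3 genes with the largest differences among bright genes are shown by the first 30 bases of each 60-nt probe, since each of these differences rests on how a single probe read. Positions are of the probe on the mm9 build. Cort was read at chr4:148499300-148499359 on the minus strand and Vgf at chr5:137509153-137509212 on the plus strand. Ccdc47 had 3 detected probes, at chr11:106060936-106060995, chr11:106064073-106064883 and chr11:30472063-30472122, all on the minus strand.
Cort probe: atagcaccctggccaccctgtgagatgcca
Vgf probe: ctctgttgtaaatacccctcacggaggaaa
Ccdc47 probe at 106060936: gggaattgtatggagtttttcacatggctt
Ccdc47 probe at 106064073: gaccagttctctggtccaaagattatgcaa
Ccdc47 probe at 30472063: gttatgtgcttaattttcttgagcaagaaa

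The integrated stress response targets had the lowest median of the lists examined, and 3 of them with an ATF4-type element just upstream are shown here. The letters searched were TGATGNAA, the core of the C/EBP-ATF composite element that ATF4 dimers bind, and TGACGTCA, the full cyclic AMP response element read by CREB, both on either strand of the 250 bases before the RefSeq start (GRCm38.p6). No run of bases can match both motifs at full length. Matches are in capitals. The windows are chr2:119350992-119351241, plus strand, for Chac1, with TTGCATCA 193 to 186 bases before the start; chr6:7693210-7693459, minus strand, for Asns, with TGATGAAA at 23 to 16; chr7:126625471-126625720, minus strand, for Nupr1, with TTGCATCA at 110 to 103; and chr13:75089607-75089856, plus strand, for the prohormone convertase Pcsk1, with TGACGTCA at 78 to 71.
Chac1 upstream: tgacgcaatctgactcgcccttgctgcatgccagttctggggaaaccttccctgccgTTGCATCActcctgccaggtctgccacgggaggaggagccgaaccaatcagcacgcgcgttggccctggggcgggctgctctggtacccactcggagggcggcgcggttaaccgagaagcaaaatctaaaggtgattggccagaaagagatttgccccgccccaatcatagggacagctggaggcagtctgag
Asns upstream: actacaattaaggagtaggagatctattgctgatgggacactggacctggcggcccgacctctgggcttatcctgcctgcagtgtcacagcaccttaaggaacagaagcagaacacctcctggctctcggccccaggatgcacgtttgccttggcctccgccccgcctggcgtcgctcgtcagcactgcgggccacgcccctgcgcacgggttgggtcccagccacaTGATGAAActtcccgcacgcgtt
Nupr1 upstream: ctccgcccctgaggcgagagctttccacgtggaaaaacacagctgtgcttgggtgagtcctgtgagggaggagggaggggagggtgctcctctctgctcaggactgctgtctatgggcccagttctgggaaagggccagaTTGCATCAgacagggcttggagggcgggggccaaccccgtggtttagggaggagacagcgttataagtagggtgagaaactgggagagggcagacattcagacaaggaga
Pcsk1 upstream: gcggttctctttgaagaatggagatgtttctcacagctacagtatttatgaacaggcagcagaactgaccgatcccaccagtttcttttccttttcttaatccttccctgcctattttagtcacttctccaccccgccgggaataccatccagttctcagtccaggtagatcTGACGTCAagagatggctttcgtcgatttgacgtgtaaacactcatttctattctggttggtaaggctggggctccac

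TGATGNAA was present in 8 of the 29 integrated stress response genes with a promoter in the table (27.6%), against 1056 of 27025 genes (3.91%) and 1134 of 32851 promoters (3.45%). The 8 were Asns, Atf3, Chac1, Jdp2, Nupr1, Pycr1, Slc7a11 and Vldlr, whose differences ran from -0.94 for Chac1 to 0.20 for Atf3. It was also in 3 of 13 cytosolic aminoacyl-tRNA synthetases (23.1%), 2 of 20 neuropeptide genes (10%), 2 of 24 immediate early genes (8.33%) and 0 of 17 activity-regulated late genes. TGACGTCA was in 478 of all genes (1.77%), in 3 of 24 immediate early genes (12.5%: Btg2, Dusp1 and Maff), in 2 of 20 neuropeptide genes (10%: Cartpt and Sst), in 1 of 29 stress response genes (3.45%) and in 0 of 13 synthetases and 0 of 17 late genes. A match is a description of these letters and not a bound site.

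The differences were small and the bulk of genes lay close to 0. The median difference over the 14341 genes was -0.05 with an SD of 0.21, and over the 8956 bright genes -0.07 with an SD of 0.16. At least 1.5-fold higher with lamotrigine were 157 genes (1.09% of those detected on both arrays) and at least 1.5-fold lower 108 (0.753%). Among bright genes only 11 were higher by that much (0.123%) and 19 lower (0.212%). At least 2-fold apart were 14 higher (0.0976%) and 9 lower (0.0628%), of which 1 and 3 were bright (0.0112% and 0.0335% of bright genes). A smaller threshold of 0.32 on the log2 scale, which is 25% higher, was also used for the lists; it was passed by 781 genes on the higher side (5.45%) and 805 on the lower (5.61%). With genes detected on a single array included at their bound, 6.76% of 14986 genes were at least 0.32 higher and 6.37% lower, and 1.86% and 1.21% at 1.5-fold, while 41.1% lay above 0 and 58.6% below. These shares are the background against which each list below is read.

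The zero of the scale is a choice. Scaling on 6 spike-in controls in place of the 75th percentile moves the median of all genes by 0.20, to 0.16, and so adds 0.20 to every difference. Differences between -0.20 and 0 turn sign under it, and differences are best read relative to the median of all genes. The median difference also fell with level, from 0.04 for genes under 25 to -0.12 for genes of at least 1600, so lists of very bright genes are also given relative to the median of their level class.

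**Figure D1:**
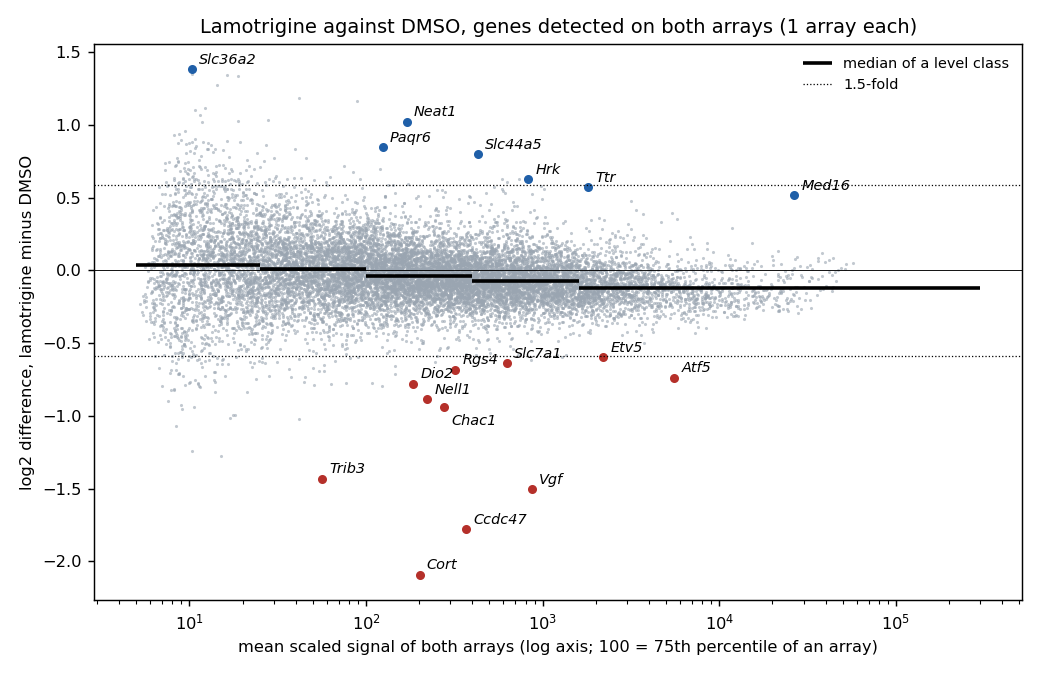
Log2 difference between lamotrigine and DMSO against the mean scaled signal (log axis) of 14341 genes detected on both arrays, 1 point per gene, with some named genes marked, dotted lines at 1.5-fold and thick lines at the median of each level class. The cloud narrows from an SD of 0.33 under a scaled signal of 25 to 0.13 at 1600 and above, and Cort, Ccdc47 and Vgf lie far below it.

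Cort, which encodes cortistatin, a peptide related to somatostatin and made by a subset of cortical inhibitory neurons, had the lowest difference of all bright genes. Its scaled signal was 97.4 with lamotrigine, 415 with DMSO and 260 with valproate. It was therefore 4.27-fold lower with lamotrigine than with DMSO, a log2 difference of -2.09, and lowest of the 3 arrays. Sst, the somatostatin gene itself, read 1824 with lamotrigine and 2198 with DMSO (-0.27).

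Vgf encodes a neurosecretory protein whose transcription follows neuronal activity and neurotrophins. Its signal was 516 with lamotrigine, 1463 with DMSO and 1760.5 with valproate, which is 2.84-fold lower with lamotrigine (-1.50). The lamotrigine array stood apart from both others. Ccdc47, an endoplasmic reticulum membrane protein, read 199, 683 and 634 on the same 3 arrays (-1.78) at its brightest probe. Its other probes differed by -0.08 and 0.09, but both were far dimmer, at scaled signals of 38.1 and 14.5 with lamotrigine. The last lies at a distant position of chromosome 11, as the coordinates above show. Which probe reads the annotated transcript was not tested, so the gene's direction is undecided.

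The other bright genes at least 1.5-fold lower held several stress and signalling genes. Chac1, Atf5, Slc7a1 and Slc7a5 belong to the integrated stress response and are described next. Rgs4, which limits signalling of G protein-coupled receptors, read 252 against 404 (-0.68; its other probe -0.46). Etv4 read 697 against 1067 (-0.61; other probe -0.52) and Etv5 1796 against 2716 (-0.60); both are ETS transcription factors induced by receptor tyrosine kinases. Rasgrp2, a guanine nucleotide exchange factor for Rap, read 353 against 533 (-0.59; other probe -0.55). Nell1, a secreted growth factor-like protein, read 163 against 302 (-0.88), Dio2, which converts thyroxine to active thyroid hormone, 141 against 242 (-0.78), and Hapln1, a link protein of the perineuronal matrix, 117 against 184 (-0.66). Cox6a2 (-0.79), Capn11 (-0.71), Luzp2 (-0.59) and Shtn1, a regulator of axon formation (-0.60), were also among the 19.

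On the valproate array some of these genes read as with lamotrigine and others as with DMSO. Shtn1 read 1062 with valproate, Hapln1 110, Dio2 160 and Capn11 112, each near its lamotrigine level. Nell1 at 344, Rgs4 at 390 and Rasgrp2 at 540 were near their DMSO level. Because both drug arrays are set against the same DMSO array, a low value with both is also what a high DMSO value alone would give.

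On the higher side the bright genes formed no single kind. Neat1, the long noncoding RNA that scaffolds nuclear paraspeckles, read 242 with lamotrigine, 119 with DMSO and 140 with valproate, a log2 difference of 1.02 and the only bright gene at least 2-fold higher. Slc44a5, of the choline transporter-like family, read 569 against 327 (0.80) and its other probe gave 0.63, which made it 1 of 2 genes with every detected probe at least 1.5-fold higher, the other being the dim Tnnt3 (0.71 and 0.70). Paqr6, a membrane progestin receptor, read 167 against 92.9 (0.85), with 0.51 and 0.43 at its other probes. Hrk, a BH3-only cell death protein of neurons, read 1028 against 665 (0.63) and 502 with valproate. Naaa, a lysosomal amidase of lipid amides, read 772 against 507 (0.61), and Lbp, the lipopolysaccharide-binding protein, 152 against 93.7 (0.70). Rln1, a relaxin peptide, read 733 against 475 (0.63). Iqsec3, a postsynaptic Arf exchange factor of inhibitory synapses, gave 0.63 at its brightest probe and -0.06 at the other, so its probes disagree. Arl4d, at -0.78 and -0.75, was the only gene with every one of several detected probes at least 1.5-fold lower. Of the 26 genes at least 1.5-fold apart that had another detected probe, 18 had the others on the same side of 0. Only 4 had another probe at least 1.5-fold apart the same way.

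The integrated stress response genes were lower together with lamotrigine. Of 34 measured targets of the 35 listed, 29 lay below 0, beside 58.6% of all measured genes. The median of the 34 was -0.30 against -0.04 for all measured genes. At least 0.32 lower were 17 of the 34, beside 6.37% of all measured genes, and 0 were higher by that much, beside 6.76%. At least 1.5-fold lower were 5, beside 1.21%, and these include Slc7a5, whose other probe lay above 0. Against the median of their own level class, 27 of the 34 were lower. This list kept a median below 0 under every scaling tried, at -0.10 with spike-in scaling.

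Among its regulators, Atf4, the transcription factor at the centre of the response, read 6291 with lamotrigine and 8469 with DMSO (-0.43), and its other probe gave -0.39. Atf5, a related factor under the same translational control, read 4315 against 7197 (-0.74). Trib3, a pseudokinase induced by ATF4 that feeds back on it, was the lowest member at 34.2 against 92.1 (-1.43), although dim. Ddit3, the factor CHOP, read 100 against 126 (-0.34), and Nupr1, a stress-inducible chromatin protein, 218 against 315 (-0.53). Cebpb and Gdf15 differed by 0.00 and 0.02, and Atf3 and Sesn2 lay above 0 at 0.20 and 0.25. The members above 0 include Ddit4 (0.12) and Stc2 (0.07), so not every member was lower.

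Of the enzymes, Chac1, which degrades glutathione and is among the most responsive ATF4 targets, read 199 against 382 (-0.94). Asns, asparagine synthetase, read 3074 against 4186 (-0.45), a difference to be set beside a technical SD of 0.063 at that level. Psph, the last enzyme of serine synthesis, read 579 against 743 (-0.36), whereas Psat1 (-0.01) and Phgdh (-0.15), the steps before it, lay near the median of all genes. The mitochondrial folate enzymes Shmt2 (-0.33) and Mthfd2 (-0.44) and the proline synthesis enzymes Aldh18a1 (-0.33) and Pycr1 (-0.54) were lower, although Mthfd2, Aldh18a1 and Pycr1 were dim. Eif4ebp1, a repressor of cap-dependent translation, read 563 against 818 (-0.54).

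Of the amino acid transporters of the list, Slc7a1, which carries arginine and lysine, read 501 against 781 (-0.64), and Slc6a9, the glycine transporter, 998 against 1289 (-0.37). Slc7a5, the large neutral amino acid transporter, read 197 against 304 (-0.63) at its brightest probe but 0.43 at another, which leaves its direction undecided. Its partner Slc3a2 read 3671.5 against 4077 (-0.15), and the cystine transporter Slc7a11 differed by -0.22.

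The cytosolic aminoacyl-tRNA synthetases, which charge tRNAs and are ATF4 targets in part, leaned the same way by less. Of 20 measured, 19 lay below 0, with a median of -0.20 and of -0.15 relative to their level class. At least 0.32 lower were 4, Yars (-0.62), Cars (-0.37), Gars (-0.35) and Lars (-0.34), beside 6.37% of all genes, and 1 was higher, Rars (0.32). Gars read 6638 with lamotrigine and 8474 with DMSO. With spike-in scaling their median came to -0.001.

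Chaperones of the endoplasmic reticulum and other unfolded protein response genes, a neighbouring stress programme run by XBP1 and ATF6, did not share the shift. Their 24 members had a median of 0.02, with 2 at least 0.32 higher (Derl3 at 0.58 and Dnajc3 at 0.38) and 0 lower, beside 6.76% and 6.37% of all genes. Hspa5, the main chaperone of that compartment, read 4170 against 4274 (-0.04). The median was -0.09 for 19 heat shock proteins and -0.03 for 21 Nrf2 targets of oxidative stress, of which 0 were 0.32 apart.

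The median scaled signal of the 34 targets was 207 with lamotrigine, 302 with DMSO and 205 with valproate, so the list as a whole read alike on both drug arrays. With valproate several of the same stress genes also lay below DMSO. Trib3 read 37.8 on the valproate array, Chac1 213, Atf5 3164, Atf4 5569 and Nupr1 210, all close to or below their lamotrigine levels. Eif4ebp1 at 1033, Slc7a1 at 754 and Asns at 3708 were nearer to or above the DMSO level. The DMSO array is common to both comparisons, so a DMSO culture with a raised stress response and drug cultures with a lowered one cannot be told apart.

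**Figure D2:**
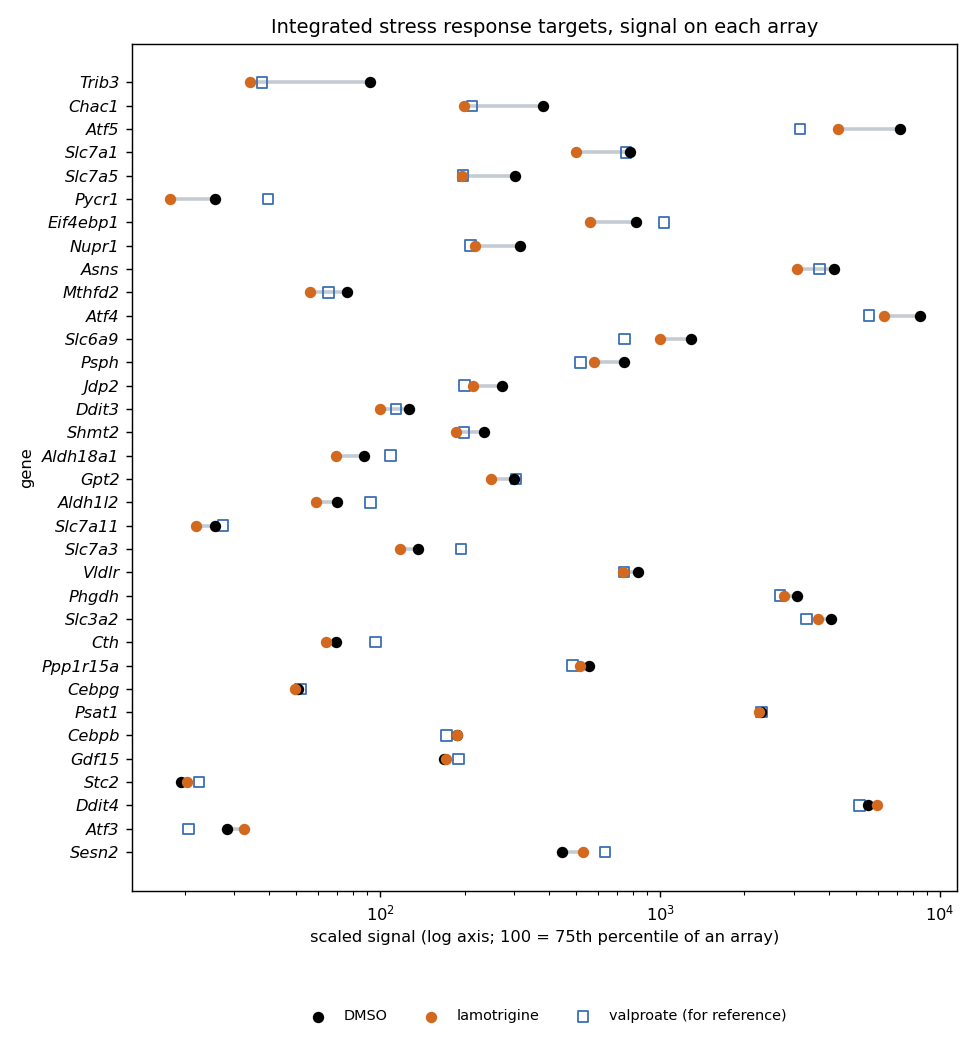
Scaled signal (log axis) of the 34 measured integrated stress response targets, ordered by their difference, with 1 point per array (black DMSO, orange lamotrigine, open square valproate), a bar joining lamotrigine and DMSO, and no error bars, since each treatment has 1 array. The lamotrigine point lies left of the DMSO point for 29 genes, from Trib3 (34.2 against 92.1) at the top, and right of it for 5, down to Sesn2 (531 against 445).

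Neuropeptide and other secretory genes spread widely. Of 25 measured neuropeptide genes, 7 were at least 0.32 lower and 1 higher (Rln1), beside 6.37% and 6.76% of all genes; the median was -0.20, and 0.01 with spike-in scaling. After Cort, the lowest were Crhbp, which binds corticotropin-releasing hormone, at 12.8 against 25.5, and Cartpt, the CART peptide, at 15.9 against 28.3 (-0.83), both dim. Pnoc, the nociceptin precursor, read 120 against 175 (-0.54) and Adcyap1, the PACAP peptide, 52.7 against 72.4 (-0.46). Cck, cholecystokinin, read 7319 against 9605 (-0.39), where the technical SD is 0.063. Npy (0.04) and Vip (0.06) lay slightly above 0, and Pdyn, prodynorphin, read 262 against 211 (0.31).

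Vgf stood apart from the other granins and dense-core vesicle genes. The remaining granins Scg2 (-0.21), Chgb (-0.21), Chga (-0.16) and Scg3 (0.21) were each less than 0.32 apart, and of 14 genes only Vgf and the release factor Cadps (-0.35) were at least 0.32 lower. Among 9 peptide processing enzymes, whose median was 0.14, Pcsk1 was the exception at 12.3 with lamotrigine, 20.4 with DMSO and 27.0 with valproate (-0.73). Pcsk1 holds the cyclic AMP response element shown above. Of the immediate early and neuropeptide genes with that element, Btg2 (0.36) and Dusp1 (0.09) lay above 0. Maff (-0.21), Cartpt (-0.83) and Sst (-0.27) lay below. Any part of the element in these values was not tested.

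Immediate early genes lay on both sides of 0. Of 30 measured, 13 lay above 0 and 17 below, with a median of -0.11 (0.09 with spike-in scaling). At least 0.32 higher were 4 and lower 5, beside 6.76% and 6.37% of all genes. The 3 members at least 1.5-fold lower, beside 1.21% of all genes, were Egr4, Npas4 and Arc, all dim. Egr4, a zinc finger factor, read 38.8 with lamotrigine, 67.0 with DMSO and 75.1 with valproate (-0.79). Npas4, a factor induced by calcium entry, read 42.7, 68.8 and 32.2 (-0.69). Arc, a regulator of AMPA receptor trafficking, read 29.1, 46.6 and 54.6 (-0.68). Nr4a1 read 205 against 254 (-0.31) and Egr1 201 against 225 (-0.16). Fos lay on the other side at 77.2 against 64.9 (0.25), as did Ier2 (0.56) and Klf4 (0.53), all dim.

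The late activity genes held a similar split. Of 25 measured, 7 were at least 0.32 lower and 2 higher, beside 6.37% and 6.76% of all genes, while the median was -0.05. At least 1.5-fold lower were 4, beside 1.21%. Besides Rgs4 and Etv5, these were Dusp4, a MAP kinase phosphatase, at 21.9 against 36.2 (-0.73) and Nptx2, a pentraxin that clusters AMPA receptors, at 7.92 against 12.2 (-0.62). Bdnf, the brain-derived neurotrophic factor, read 39.2 with lamotrigine, 57.2 with DMSO and 56.1 with valproate (-0.54), and Rasgrp1 64.7, 93.6 and 156 (-0.53), although another Rasgrp1 probe gave 0.38. Baz1a (0.45) and Plat (0.36) were the higher members. Cort, Vgf, Egr4, Arc, Rgs4 and Bdnf were each lower with lamotrigine than on either of the other arrays; these were picked after their values were seen.

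Feedback genes of the MAP kinase pathway and the Etv factors, a list put together after seeing Etv4, Etv5 and Dusp4, are given as a description only. Of 16 measured members 15 lay below 0, with a median of -0.24 (-0.04 with spike-in scaling). Dusp6, the ERK phosphatase, read 583 against 760 (-0.38), Dusp7 102 against 134 (-0.39, with -0.01 at its other probe) and Spred2, a Ras pathway inhibitor, 38.4 against 48.6 (-0.34). Sphk1, sphingosine kinase, read 58.9 against 101 (-0.78), with -0.27 at its other probe. Spry2 was the exception at 0.17.

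**Figure D3:**
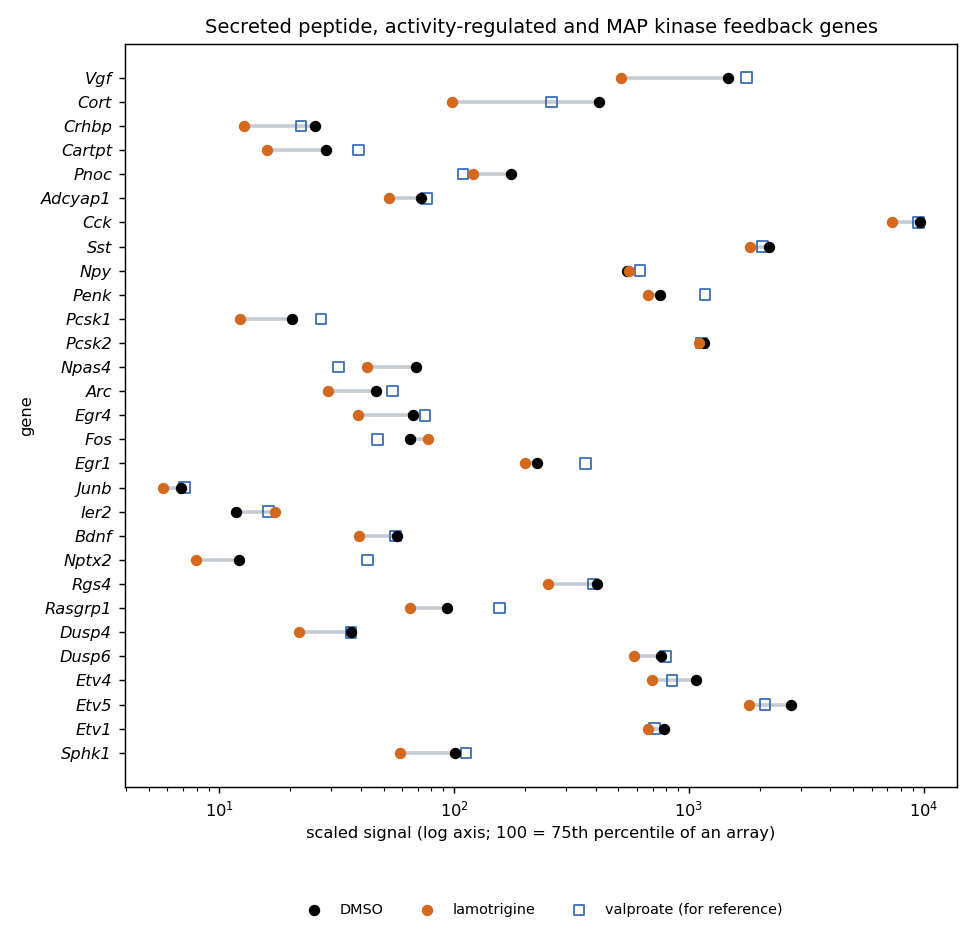
Scaled signal (log axis) of secreted peptide, activity-regulated and MAP kinase feedback genes selected after their values were seen, with 1 point per gene and array (black DMSO, orange lamotrigine, open square valproate) and a bar joining lamotrigine and DMSO. Vgf stands at 516 with lamotrigine and 1463 with DMSO and Cort at 97.4 and 415, while Fos is on the other side at 77.2 and 64.9.

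The drug's own targets, the voltage-gated sodium channels, differed little. Of 15 subunit genes 13 were measured, with a median of -0.05 (0.12 with spike-in scaling), and only Scn11a, which is dim, was at least 0.32 apart, at 7.51 against 9.73 (-0.37). For the main pore subunits of brain, Scn1a read 61.8 against 75.2 (-0.28), Scn2a 782 against 874 (-0.16), and Scn3a, the embryonic form, 380 against 429 (-0.17, with -0.25, 0.13 and 0.00 at other probes). Scn8a read 310 against 270 (0.20), but its other probe gave -0.54, so its direction is undecided. Of the auxiliary beta subunits, Scn2b (-0.25), Scn3b (0.09) and Scn4b (0.13) lay on both sides of 0. Scn4a (-0.02), the leak channel Nalcn (-0.15) and Scn9a, whose bound was 0, were also measured. Ankyrin, FGF-homologous factors and other partners of the channels held 0 of 10 members that were 0.32 apart.

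Potassium channel subunits leaned lower, with a median of -0.15 (0.05 with spike-in scaling). Of 36, 9 were at least 0.32 lower and 1 higher, beside 6.37% and 6.76% of all genes. Kcna1, a low-threshold axonal channel, read 282 against 387 (-0.46), Kcnip3, a calcium-binding partner of Kv4 channels, 1760 against 2268 (-0.37), Kcnh3 1070 against 1344 (-0.33) and Kcnma1, the BK channel, 370 against 468 (-0.34, with -0.08 and -0.23 at its other probes). Kcnj3, the GIRK1 subunit, was lowest at -1.07, but its other probe gave -0.23. Calcium channel subunits had a median of -0.12 over 16 members, with 1 at least 0.32 higher and 1 lower, beside 6.76% and 6.37% of all genes.

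Synaptic genes differed little. Ionotropic glutamate receptor genes had a median of -0.11 over 21 members with 3 at least 0.32 lower and 0 higher, GABA-A and glycine receptor genes -0.09 over 16 with 0 at 0.32, and vesicle release genes -0.12 over 35 with 2 at least 0.32 lower. Over all genes, 6.37% were at least 0.32 lower and 6.76% higher. Postsynaptic scaffolds had a median of -0.17 over 38 members, with 2 at least 0.32 lower and 29 below the median of their level class. The median came to -0.07 relative to their level class and 0.03 with spike-in scaling. The lowest of them, Baiap2, read 574 against 791 (-0.46), with -0.12 at its other probe. Metabotropic glutamate and GABA-B receptor genes had a median of 0.02 over 11 members, with 7 above 0. At least 0.32 lower were 2 and higher 0, beside 6.37% and 6.76% of all genes. The 2 were Grm3 at 53.7 against 82.8 (-0.63) and Grm5 at 1026 against 1436 (-0.49). The other probes of Grm5 gave 0.01 and -0.46. Of the diacylglycerol kinases, which end diacylglycerol signals, Dgkz read 415 against 616 (-0.57) and Dgkg 29.1 against 59.3 (-1.02).

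Genes of the choroid plexus, the secretory epithelium that makes cerebrospinal fluid, were higher with lamotrigine. The list was put together after Slc13a4 and Kcnj13 had been seen among the higher genes, so its counts describe and support nothing. Of 23 measured members of 27 listed, 20 lay above 0. At least 0.32 higher were 13 and lower 0, beside 6.76% and 6.37% of all genes. The median was 0.41, and 0.16 with normexp background correction. Ttr, transthyretin, the main secreted protein of this epithelium, read 2213 with lamotrigine, 1490 with DMSO and 1411 with valproate (0.57). Folr1, its folate receptor, read 1038, 809 and 451 (0.36), and the zinc transporter Slc39a12 324, 222 and 156 (0.55, with 0.86 at its other probe). The sulfate transporter Slc13a4 read 162 with lamotrigine, 108 with DMSO and 174 with valproate (0.59). Clic6 read 115 against 74.6 (0.63), Msx1 149 against 110 (0.44) and Sostdc1 130 against 97.8 (0.41). The median scaled signal of the 23 measured members was 122 with lamotrigine, 97.8 with DMSO and 114 with valproate. The DMSO array is common to both drugs, so a low DMSO culture and raised drug cultures cannot be told apart. Kcnj13 (0.89, with 0.31 at its other probe), the water channel Aqp1 (0.68) and Lmx1a (0.47) were higher and dim. Otx2, a transcription factor of this lineage, read 522 against 490 (0.09), and Slco1c1 (-0.31) and Htr2c (-0.21) were among the members below 0. In these bulk samples more cells of a type and more RNA per cell cannot be told apart.

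Ependymal and motile cilium genes, which belong to the neighbouring ciliated cells of the ventricle wall, were higher by less. Of 18 measured, 16 lay above 0 and 18 above the median of their level class, with a median of 0.15. At least 0.32 higher were 4 and lower 0, beside 6.76% and 6.37% of all genes. Foxj1, the master factor of motile cilia, read 1029 with lamotrigine, 771 with DMSO and 484 with valproate (0.42). Enkur read 194, 141 and 93.7 (0.47), Ttll6 31.5, 22.8 and 19.8 (0.47), and the axonemal dynein Dnah9 39.2, 22.9 and 24.1 (0.77). These were the 4 members farthest from 0, and for each the lamotrigine array was the highest. Among the other members of high level, Mcidas read 1730, 1608 and 1753 (0.11) and Cfap126 736, 739 and 277 (-0.01).

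**Figure D4:**
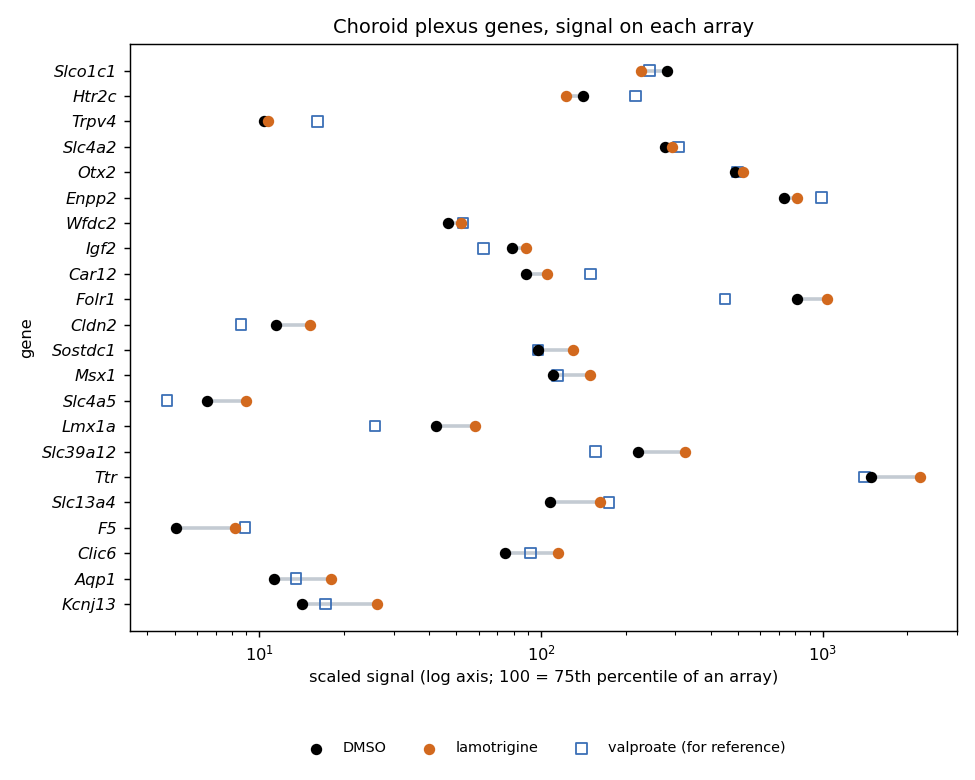
Scaled signal (log axis) of 22 of the 23 measured choroid plexus genes, ordered by their difference, with 1 point per array (black DMSO, orange lamotrigine, open square valproate) and a bar joining lamotrigine and DMSO. The lamotrigine point lies right of the DMSO point for 20 genes, Ttr (2213 against 1490) among them, and left of it for Slco1c1 and Htr2c; the measured gene not shown lay below 0 and is not reported singly here.

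Antigen presentation genes were modestly higher. Of 17 measured, 14 lay above 0. At least 0.32 higher were 5 and lower 0, beside 6.76% and 6.37% of all genes. The median was 0.24, and 0.08 with normexp background correction. The class I heavy chains H2-D1 at 576 against 432 (0.41), H2-K1 at 895 against 711 (0.33) and H2-T23 at 289 against 215 (0.43) were bright, as was B2m, their light chain, at 1343 against 1096 (0.29). Tap1, the peptide transporter, read 37.9 against 27.6 (0.46). H2-Q4, also of class I, read 5219 with lamotrigine, 4145 with DMSO and 4571 with valproate (0.33). H2-D1 at 1268.5 and B2m at 1964 were higher on the valproate array than on either of the others, whereas H2-Q4 was highest with lamotrigine.

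Interferon-stimulated genes showed a small lean that rested on dim members. Of 42 measured, 32 lay above 0 and 7 were at least 0.32 higher, beside 41.1% and 6.76% of all genes. Detected with lamotrigine only were 3 of the 42, whose bounds could not lie below 0. The median was 0.13, but the 14 bright members had a median of 0.03. Gbp2 read 69.3 against 48.7 (0.51), Ifit3 62.4 against 44.3 (0.49), Cmpk2 158 against 120 (0.40, other probe 0.01) and Rsad2 differed by 0.58. Isg15, a ubiquitin-like modifier, read 156 against 132 (0.24), but -0.16 at its other probe. Cytokine and chemokine genes had a median of -0.02 over 17 members.

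Genes of apoptosis and the p53 pathway lay slightly above the rest, with a median of 0.10, or 0.16 relative to their level class. Above 0 were 20 of 24, beside 41.1% of all genes, but only 2 were at least 0.32 higher, beside 6.76%. Ccng1, a direct p53 target, was 1 of them, at 1055 against 817 (0.37). Fas (0.30), Trp53inp1 (0.29) and Sesn1 (0.27), also p53 targets, followed. Trp53 itself (-0.20), Bax (-0.17) and Bak1 (-0.17) lay below 0. Proliferation genes had a median of -0.04 over 28 members, none of which (0 of 28) was 0.32 apart.

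Lamotrigine is cleared by glucuronidation and has been described as a weak inhibitor of folate metabolism, and both sets of genes were examined. Of 28 drug metabolism and transport genes on the array only 14 were measured, and 13 of those lay above 0, beside 41.1% of all genes. Detected with lamotrigine only were 2 of the 14, whose bounds could not lie below 0. The median was 0.15, which became -0.08 without the detection filter. Ugt1a6b, a glucuronosyltransferase, read 201 with lamotrigine, 155 with DMSO and 95.2 with valproate (0.37), and the efflux pump Abcg2 132, 172 and 339 (-0.38). Of 20 folate and one-carbon genes, 2 were at least 0.32 higher and 2 lower, beside 6.76% and 6.37% of all genes. The higher were Folr1 and the dim Folr2 (0.72). The lower were Gldc of the glycine cleavage system at 343 against 513 (-0.58) and Shmt1 (-0.34). The mitochondrial folate enzymes Shmt2 and Mthfd2, both lower, are counted with the stress response targets and not in this list.

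Large families of very bright genes sat below 0 together. Cytosolic ribosomal protein genes had a median of -0.19 over 83 members, or -0.07 relative to their level class, and respiratory chain subunits -0.20 over 82, or -0.08. Mitochondrial ribosomal protein genes had a median of -0.12 and proteasome subunits -0.13. Below the median of their own level class were 68 of the 83 cytosolic ribosomal, 72 of the 82 respiratory chain, 62 of the 78 mitochondrial ribosomal and 24 of the 37 proteasome genes, although few were 0.32 lower (5, 6, 5 and 0). With spike-in scaling the ribosomal, mitochondrial ribosomal and proteasome medians all turned above 0, and that of the respiratory chain came to -0.001. Collagen genes had a median of 0.13 over 33 members, of which 23 lay above 0 and 2 were at least 0.32 higher, beside 41.1% and 6.76% of all genes. The bright Col1a1 read 1703 against 2016 (-0.24).

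Markers of the main cell types matched a mixed culture of neurons and glia, and most differed little between the arrays. The 19 pan-neuronal markers were measured without exception, with a median of -0.18, or -0.06 relative to their level class and 0.02 with spike-in scaling. Tubb3, neuronal tubulin, read 6399 against 7649 (-0.26). The 3 at least 0.32 lower, beside 6.37% of all genes, were Nefh (-0.48), Map2 (-0.35, with -0.09 and -0.46 at other probes) and Nefm (-0.32). Excitatory markers had a median of -0.08 over 18 and astrocyte markers -0.01 over 17, with Gfap at 2603 against 2242 (0.22), Gja1 0.34 and S100b -0.37. Oligodendrocyte lineage markers had a median of -0.12 over 15. Of these, 3 were at least 0.32 lower, beside 6.37% of all genes: Gpr17 (-0.50), Pdgfra (-0.39) and Nkx2-2 (-0.35). Microglial markers were measured for 8 of 17 genes and endothelial and mural markers for 7 of 14, with Cx3cr1 and Cldn5 among those not detected.

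Inhibitory neuron markers are given beside Cort, which is 1 of them. Of 26 listed 25 were measured, with a median of 0.02, while 14 lay above 0 and 11 below. The bright members, also 14 in number, had a median of -0.14, beside -0.07 for all bright genes. With normexp background correction the median of the list also turned below 0. At least 0.32 lower were 4 and higher 1 (Reln, 0.47, dim), beside 6.37% and 6.76% of all genes. Slc32a1, the vesicular GABA transporter, read 3657 against 4906 (-0.42, other probe -0.14) and Calb1, calbindin, 108 against 161 (-0.57, other probe 0.04). Gad1, which makes GABA, read 507 against 631 (-0.315), just short of the exact threshold of 0.322 and not counted among the 4. The regional factors Lhx6 (-0.07) and Dlx1 (0.14) were near 0, and the part of these markers in the Cort value was not tested.

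**Figure D5:**
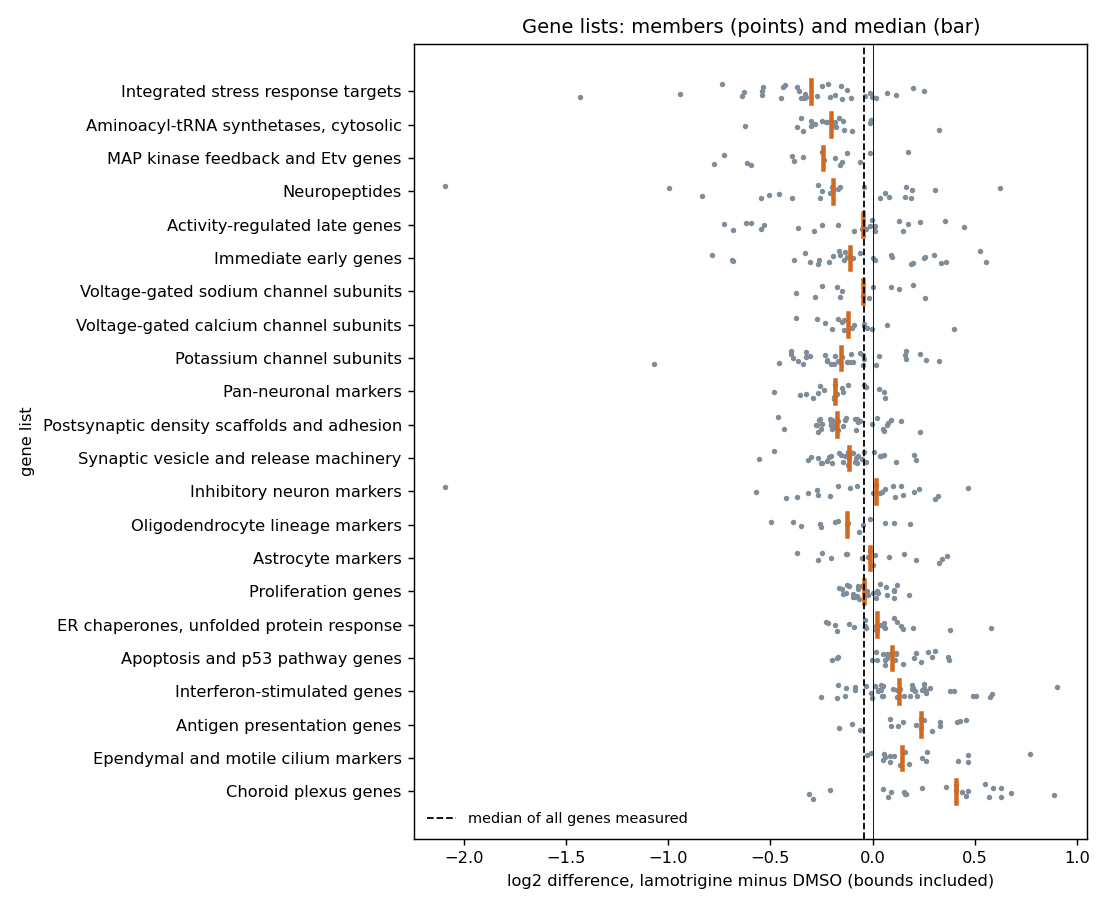
Log2 difference between lamotrigine and DMSO of the members of selected gene lists, 1 point per gene, with an orange bar at the median of each list and a dashed line at the median of all genes measured (-0.04). The integrated stress response targets have their median at -0.30 and the choroid plexus genes at 0.41, and the points of each list overlap those of most others. The choroid plexus list and the MAP kinase feedback and Etv list were put together after values of some members were seen, so their medians describe only.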

How the data were processed

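TRIzol RNA of each culture was labelled with Cy3 (Low Input Quick Amp kit) for 1-colour Agilent mouse arrays, per the labels. Per the file headers, Feature Extraction 10.7.1.1 read spot intensity, subtracted background and detrended it within each array, on the mm9 build, and the 3 arrays shared 1 slide. The authors also deposited a table of normalized intensity values, with its software not given in the sources used here, which served as an alternative.

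The processed signal was divided by its array's 75th percentile over 59305 spots that are not controls and multiplied by 100. Outlier spots were left out, and repeated spots were averaged as log2 values. Detection required that most spots of a probe were well above background. Of 55681 probes, 31393 were joined to RefSeq genes by accession, symbol or older symbol. A gene was read by its brightest probe on average of both arrays. For a gene detected on 1 array, the other took the detection floor (4.63 for lamotrigine and 5.29 for DMSO) or the gene's own higher signal, which gives a bound. By this rule a gene detected with lamotrigine only cannot lie below 0, nor a gene detected with DMSO only above 0. The number of arrays limits the precision, and no test between treatments was run.

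Named genes were up to 20 highest and 20 lowest bright genes at least 1.5-fold apart, up to 8 dimmer genes each way at least 2-fold apart, the 4 largest bounds each way, genes whose probes were all 1.5-fold apart, the sodium channels, and the 4 most distant members of each list. Many of these are only counted. Other members named were chosen after their values were seen. The gene lists (48, with 14 families and 2 lists added later) and their members were chosen with earlier results of these data known. Alternatives were quantile normalization, centring on detected probes, spike-in scaling, normexp (limma 3.58.1, offset 50), the deposited table, other filters, probe means and other thresholds. Subtraction of the level-class median was chosen after seeing the data. The calculation was tested on simulated data.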

Additional observations from a re-analysis of the deposited data

How the results depend on the processing

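No paired analysis was possible because each treatment has 1 array. The counts at least 1.5-fold higher and lower (157 and 108) came to 533 and 27 with spike-in scaling, 14 and 18 with normexp, 1491 and 1162 with no detection filter, 11 and 19 for bright genes and 781 and 805 at a threshold of 0.32 (log2). The counts at least 2-fold higher and lower (14 and 9) came to 0 and 4 with normexp, 640 and 536 with no detection filter, 1 and 3 for bright genes, and 0 and 2 at 3-fold; with spike-in scaling 43 were higher, and 15 were lower with quantile normalization and with the deposited table. The SD of all genes was 0.44 with no detection filter. Spike-in scaling moved the median of all genes to 0.16. Under it the medians of sodium channels came to 0.12, neuropeptides 0.0066, immediate early genes 0.093, late genes 0.16, postsynaptic scaffolds 0.028, pan-neuronal markers 0.020, stress response targets -0.097, tRNA synthetases -0.0011, interferon genes 0.33, antigen presentation 0.44, p53 genes 0.30 and ependymal markers 0.35. It also turned above 0 the medians of calcium channels (0.082), HCN channels (0.058), potassium channels (0.048), granins (0.029), ionotropic glutamate receptors (0.094), transmitter synthesis (0.091), vesicle release (0.086), phosphoinositide genes (0.086), clock genes (0.098), oligodendrocyte markers (0.080), cytosolic ribosomal (0.016), mitochondrial ribosomal (0.078) and proteasome (0.074) genes, initiation factors (0.083), tubulins (0.060) and histones (0.068). This follows from its construction, which adds the same amount to every gene. With quantile normalization, scaffolds, pan-neuronal markers and initiation factors stood at -0.077, -0.074 and 0.0118. With the deposited table they stood at -0.078, -0.074 and 0.0116. Relative to the level class, scaffolds and pan-neuronal markers came to -0.066 and -0.062. Antigen presentation was 0.083 with normexp, interferon genes 0.025 in bright members, drug metabolism genes -0.077 with no detection filter and Npnt -0.015 with normexp; the cause of these was not tested. Of 322 named genes, 35 had the other sign under at least 1 alternative, mostly genes near 0 under spike-in scaling.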

Other observations

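Med16, a subunit of the Mediator complex that links transcription factors to RNA polymerase, was very bright and higher with lamotrigine. Its scaled signal was 31796 with lamotrigine, 22214 with DMSO and 22403 with valproate, a log2 difference of 0.52. At that level the technical SD of repeated spots is 0.063, and the SD of the differences of all genes is 0.13. Whether the probe reads Med16 alone was not tested. It was picked after its value was seen. Tfrc, the transferrin receptor, which had been listed as a reference gene, read 166 with lamotrigine, 242 with DMSO and 149 with valproate (-0.54).

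Of genes detected on a single array, Nox3, an NADPH oxidase, was at least 5.07-fold higher and Alox5ap, which activates 5-lipoxygenase, at least 3.92-fold higher with lamotrigine. Ciart, a repressor of the circadian clock, was at least 2.45-fold lower. These genes were dim, and with normexp background correction the log2 differences came to 0.86 for Nox3, 0.61 for Alox5ap and -0.49 for Ciart. Of the probes for intergenic RNA regions, 3936 of 16180 were detected on both arrays, with a median difference of -0.01 and an SD of 0.28. Of these 3936 probes, 123 were at least 1.5-fold higher and 77 lower. Among the 14341 genes detected on both arrays, whose SD was smaller at 0.21, 157 were higher (1.09%) and 108 lower (0.753%).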
